A study of Mus musculus with 75 samples.

Results

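Acute-phase proteins are plasma and tissue proteins whose genes are switched on by inflammatory cytokines, chiefly interleukin 6 and interleukin 1, which act through the C/EBP, STAT and NF-kB families of transcription factors. The complement system is a chain of proteases and opsonins that marks microbes and debris, and its classical branch starts when C1q binds and activates the proteases C1r and C1s. The liver makes most of both groups, and connective tissue fibroblasts also make several of them.

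The 9 genes described here were Saa1, Saa2, Saa3, Lcn2 and Hp, which encode acute-phase proteins, and C3, C4b, C1s1 and Serping1, which encode complement proteins and a complement inhibitor. They were selected by name among the 24984 genes counted in every library, and among them Saa3 was chosen for its very large fall after P1. The levels at P1 against later passages were therefore known when the genes were chosen, and those contrasts are given as a description without a test.

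The cells were C57BL/6 skin fibroblasts, which according to the methods came from 2-month-old female mice and were passaged until P7, when they were taken as replicatively senescent. For RNA-seq each of these passages (P1, P3, P5, P7) had 4 libraries, and open chromatin was profiled by ATAC-seq in 4 P1 samples and in 3 samples of every later passage. In 4 further RNA-seq experiments, E2f4 was overexpressed from a doxycycline-inducible lentivirus in P4 cells (2 libraries, against 2 of a vector control), or E2f4, Tead1 or Atf3 was knocked down by lentiviral hairpins, with 3 libraries each of E2f4 sh1, Tead1 sh3 and sh4, Atf3 sh5 and sh6, and 3 of a non-targeting hairpin in each experiment. The paper's results place E2f4 knockdown in P3 cells and Atf3 knockdown in cells before senescence, and give no passage for Tead1 knockdown. Its methods name a passage after P4 for senescence interventions. Fibroblasts of newborn and of 2-month-old mice were used for the genetic manipulations, without a label on each library. The libraries held 9147324 to 27552949 counts on genes (13430229 to 15725823 in the passage series). All 10 fibroblast markers examined were detected in every group, and their summed level lay between 26481 and 28065 CPM (counts scaled to the library size) at P1 and between 49268 and 59874 CPM at P7.

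The first 5 genes act outside the cascade of complement proteases. Saa1, Saa2 and Saa3 encode serum amyloid A proteins, apolipoproteins of high-density lipoprotein that rise steeply in inflammation, and Saa3 is the form made mainly outside the liver. They lie in 1 cluster on chromosome 7 (GRCm38), Saa3 at chr7:46711998-46719615 on the minus strand, Saa1 at chr7:46740497-46743181 on the minus strand and Saa2 at chr7:46751833-46754313 on the plus strand. Lcn2 (chr2:32384637-32387739, minus strand) encodes lipocalin 2, which binds bacterial siderophores, and Hp (chr8:109575128-109579172, minus strand) encodes haptoglobin, which binds free haemoglobin. C3 (chr17:57203967-57228136, minus strand) encodes the component on which all complement branches converge, and C4b (chr17:34728139-34743902, minus strand) the component cleaved by C1s. C1s1 (chr6:124530344-124542392, minus strand) encodes that protease, and Serping1 (chr2:84765360-84775444, minus strand) encodes C1 inhibitor, the serpin that inactivates C1r and C1s.

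RefSeq promoter sequence (GRCm38.p6) was at hand for 6 of the 9 genes, namely Saa1, Saa2, Saa3, Lcn2, C3 and C1s1. The 250 bases before the start are shown for 5 of them, because Saa3 had the highest level at P1, Saa1 and Saa2 lie in the same cluster, C3 was higher with E2f4 overexpression, and C1s1 had a peak at its start in every ATAC-seq sample. Capitals mark each match to the C/EBP motif TTNNGNAA on either strand.
Saa3, chr7:46715677-46715926, minus strand: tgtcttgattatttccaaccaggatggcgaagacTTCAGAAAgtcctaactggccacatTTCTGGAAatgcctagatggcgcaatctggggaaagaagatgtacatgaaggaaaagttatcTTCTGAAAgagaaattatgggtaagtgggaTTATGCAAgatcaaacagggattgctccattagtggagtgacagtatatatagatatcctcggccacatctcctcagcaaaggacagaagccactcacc
Saa1, chr7:46742981-46743230, minus strand: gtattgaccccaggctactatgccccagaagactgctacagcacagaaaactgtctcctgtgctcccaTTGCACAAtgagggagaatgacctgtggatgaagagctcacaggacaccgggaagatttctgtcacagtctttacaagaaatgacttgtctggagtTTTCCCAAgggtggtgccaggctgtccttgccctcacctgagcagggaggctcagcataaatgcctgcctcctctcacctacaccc
Saa2, chr7:46751583-46751832, plus strand: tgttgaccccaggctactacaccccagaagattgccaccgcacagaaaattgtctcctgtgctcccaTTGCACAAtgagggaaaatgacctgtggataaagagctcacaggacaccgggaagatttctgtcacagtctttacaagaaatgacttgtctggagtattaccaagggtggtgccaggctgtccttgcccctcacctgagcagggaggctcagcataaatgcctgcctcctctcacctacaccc
C3, chr17:57228137-57228386, minus strand: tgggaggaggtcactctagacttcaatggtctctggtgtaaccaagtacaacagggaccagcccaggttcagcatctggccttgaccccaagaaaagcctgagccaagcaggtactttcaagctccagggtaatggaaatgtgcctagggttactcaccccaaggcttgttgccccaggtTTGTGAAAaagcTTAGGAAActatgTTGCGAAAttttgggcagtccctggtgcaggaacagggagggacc
C1s1, chr6:124542360-124542609, minus strand: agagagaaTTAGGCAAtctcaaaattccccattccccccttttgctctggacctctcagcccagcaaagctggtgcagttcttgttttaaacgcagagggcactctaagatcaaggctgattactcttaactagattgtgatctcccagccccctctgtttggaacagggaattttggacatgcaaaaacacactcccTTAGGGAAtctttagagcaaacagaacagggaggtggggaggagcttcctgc

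The Saa3 window held 4 C/EBP matches, beginning 216, 191, 129 and 99 bases before the start, and the C3 window held 3, beginning 70, 58 and 45 bases before it. Over all 32851 promoters of the table, 36.8% held at least 1 such match, 2.61% held 3 or more and 0.591% held 4 or more. The windows of Saa1 and Saa2 held 2 and 1 matches and shared 238 of 250 bases in the same order. The searched letters of NF-kB, STAT (TTCNNNGAA), AP-1 (TGANTCA) and E2F (TTNNCGC) were in none of the windows of the 6 genes, and those of TEAD (GGAATG) were once in the C1s1 window. These motifs were in 3.9%, 7.02%, 6.75%, 17% and 12.6% of all promoters, in the order given. A match of letters is a description of the window and does not show that a factor binds there.

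In the passage series, counts were scaled to CPM on TMM-normalized library sizes. Saa3 had 614, 413, 731 and 249 CPM in replicates 1 to 4 of P1. It had 2.23, 2.47, 2.58 and 1.02 CPM at P3, 0.323, 0.622, 0.452 and 0.132 CPM at P5, and 1.15, 0.0772, 0.231 and 0 CPM at P7. Every P1 library stood above every later library, and replicate 4 was the lowest at each passage. Pooled over 4 libraries, 29746 reads at P1 stood against 124, 23 and 19 reads in the later passages in order. The ratio of P1 to P3 was 235 (95% counting interval 197 to 283) and that of P1 to P7 was 1369 (876 to 2274). These intervals cover counting error only. An exon of Gm31882 on the other strand overlaps 3.07% of the Saa3 exon length, and the authors counted without strand.

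The other 2 amyloid genes were scarce. Saa1 had 2.05, 1.09, 2.87 and 0.681 CPM in the P1 libraries, 99 reads in all, and no read in the 12 later passage libraries. Its P1 level was therefore at least 32.4-fold above P3, 33.2-fold above P5 and 28.8-fold above P7, taking 3 reads over a group as the floor. Saa2 gave 1 read in all 44 libraries, in P1 replicate 4, and its fold change cannot be given. Of the windows of 150 bases in the Saa1 transcripts, 2.11% are identical in Saa2, so reads from that stretch cannot be assigned to either gene.

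Lcn2 and Hp showed the same shape at low levels. Lcn2 had 1.23, 1.36, 2.12 and 0.804 CPM at P1 and at most 0.274 CPM in any later passage library. Its 82 reads at P1 stood against 8, 5 and 1 at P3, P5 and P7, and the ratio of P1 to P7 was 71.7 with an interval of 12.5 to 2865. Hp had 5.89, 4.83, 8.48 and 2.48 CPM at P1 and at most 0.331 CPM later. The ratio of P1 to P7 for Hp was 40.1 (19.2 to 101).

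The complement genes kept a measurable level throughout. C3 had 21, 20.4, 31.5 and 10.4 CPM at P1, and the later libraries ranged from 2.13 to 4.52 CPM at P3 and P5 and were 2.21, 3.47, 5.07 and 0.816 CPM at P7. The lowest P1 library was above the highest later one. C4b had 39.1, 39.6, 45.7 and 17.6 CPM at P1, then 8.67, 7.75, 5.35 and 2.78 at P3, 8.21, 8.23, 8.85 and 8.34 at P5, and 3.36, 2.16, 3.38 and 2.45 at P7. It thus had a plateau at P5 and its lowest mean at P7. The log2 fold changes at P7 against P1 were -2.85 ± 0.37 (SE) for C3 and -3.64 ± 0.31 for C4b. Of the 150-base windows of the C4b transcripts 7.48% are identical in C4a, so part of its reads could be split between both.

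C1s1 and Serping1 differed least between passages. C1s1 had 68.2, 68.6, 73.8 and 48.3 CPM at P1 and 50.5, 34.8, 49.5 and 24.4 CPM at P7, and the groups overlapped. Serping1 had 139.6, 117, 157 and 115 CPM at P1 and 108, 86.3, 90.4 and 74.7 CPM at P7, without overlap. Their log2 fold changes at P7 against P1 were -0.70 ± 0.22 and -0.56 ± 0.13. For comparison, the fitted levels of C3 and C4b at P7 were 7.19-fold and 12.5-fold below those at P1.

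**Figure D1:**
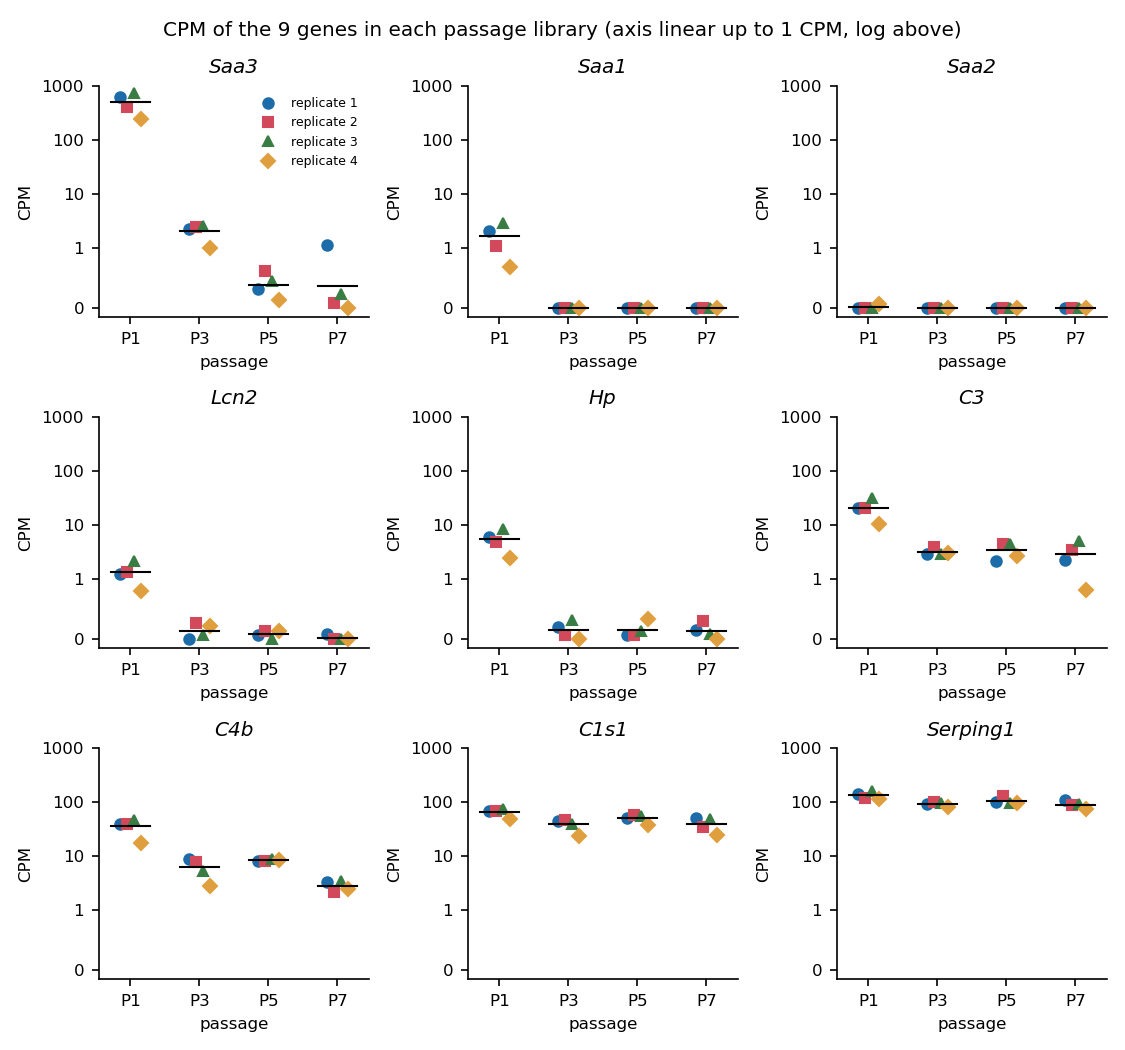
CPM of each of the 9 genes (y axis, linear up to 1 CPM and logarithmic above) in the 4 libraries of P1, P3, P5 and P7 (x axis); symbols are replicates and lines are group means. Saa3 drops from 249 to 731 CPM at P1 to at most 2.58 CPM later, while Serping1 stays between 74.7 and 157 CPM in all libraries.

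Of the 9 genes, 8 passed the filter on low counts in the passage series, Saa1, Lcn2 and Hp only through P1, and Saa2 did not. With the edgeR quasi-likelihood fit and a call at an adjusted p below 0.05 and a change of more than 2-fold, 6 of the 8 were called lower at P3, at P5 and at P7 against P1. The background shares of genes called lower were 6.58%, 10.1% and 13.3%. The genes were selected on these contrasts, so the counts describe the choice. In P1, replicate 3 was the highest and replicate 4 the lowest library for 8 of the 9 genes. The spread within P1 was 2.94-fold for Saa3 and 1.36-fold for Serping1.

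Per kilobase of exon, the order of levels turned over. At P1, Saa3 stood first with 641 ± 273 CPM per kilobase (SD, n = 4), followed by Serping1 with 71.9 ± 10.8, C1s1 with 20.8 ± 3.6 and C4b with 6.32 ± 2.19. The next in order, Hp with 4.03 ± 1.85 and C3 with 3.997 ± 1.66 CPM per kilobase, did not differ beyond their spread. Saa3 made up 85.3% of the summed level of the 9 genes at P1 and 3.98%, 0.64% and 0.73% at P3, P5 and P7. At P7 Serping1 stood first with 48.8 ± 7.4 CPM per kilobase, 77.2% of the sum, C1s1 second with 12.8 ± 4.0, and C3 and C4b followed with 0.556 ± 0.348 and 0.505 ± 0.112, which did not differ beyond their spread.

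Marker sums of other cell types differed between P1 and later passages to different degrees. The 12 macrophage markers summed to 339 to 528 CPM in the P1 libraries and to 34.1 to 55.0 CPM at P7, and the 10 keratinocyte markers to 69.8 to 424 CPM at P1 and 9.61 to 13.4 CPM at P7. Macrophage markers at 0 in a whole passage group numbered 0, and the keratinocyte list had 1 marker at 0 at P1 and 3 at P7. The keratinocyte sum was highest in P1 replicate 3 (424 CPM) and lowest in P1 replicate 4 (69.8 CPM). The macrophage sum was also lowest in P1 replicate 4 (339 CPM), and its highest library was P1 replicate 1 (528 CPM). The 8 neutrophil markers summed to 1.99 CPM at most in P1, with 3 of them at 0. Skeletal muscle markers summed to 154 to 249 CPM at P1 and 39.2 to 110.0 CPM at P7, with P1 replicate 4 the highest and P1 replicate 3 the lowest, the reverse of the order in 8 of the 9 genes. Adipocyte markers summed to 384 to 517 CPM at P1 and 128 to 309 CPM at P7, and endothelial markers to 231 to 265 and 141 to 196 CPM. Already at P3 the macrophage sum was 47.5 to 64.5 CPM, the keratinocyte sum 3.09 to 6.31 CPM and the skeletal muscle sum 54.8 to 62.6 CPM. The adipocyte sum (225 to 409 CPM) and the endothelial sum (209 to 249 CPM) at P3 overlapped those of P1. Of the 10 adipocyte markers, 3 were at 0 at P1 and 5 at P3 and at P7. A sum can hide single markers, since Fabp4 of the adipocyte list had 50.5 CPM at P1, 5.86 at P3 and 3.90 at P7 on average. The part of these cells in the fall of the 9 genes was not tested, and in bulk samples fewer cells of a type and less RNA per cell cannot be told apart.

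The genes whose profile over the 16 passage libraries was most like that of each gene were taken from 9583 genes with an average log2 CPM of at least 3. For Saa3 they were Hsd11b1, which activates glucocorticoids (Pearson's r = 0.985), Plek (0.978) and Egfl7 (0.978). For Saa1 they were the basal keratins Krt14 (0.986) and Krt5 (0.985) and the complement factor B gene Cfb (0.983), and for Hp they included Krt5 (0.971). For C4b the closest was the chemokine gene Cxcl12 (0.970), which had 493, 173, 151 and 82.0 CPM on average at P1, P3, P5 and P7. For C3 they included the fatty acid binding protein gene Fabp4 (0.928), which is also in the adipocyte list. For C1s1 they were Fdft1 (0.938), an enzyme of sterol synthesis, the lysosomal protease gene Lgmn (0.932) and Fdps (0.905). For Serping1 the closest was Btd (0.878). These values are a description over 16 libraries that share 4 passages and carry no test.

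The stated reason for the choice names the fall of Saa3 after P1 and no change of the other genes among P3, P5 and P7. Earlier results of these data were known at the choice, so these tests may not be fully independent of it. Of the 6 other genes with reads in these passages, C4b alone was called. It was lower at P7 than at P5, with a log2 fold change of -1.56 ± 0.32 (edgeR adjusted p = 0.00193) and no overlap of the libraries. It was also lower at P7 than at P3, by -1.12 ± 0.32 (edgeR adjusted p = 0.00723), but the highest P7 library (3.38 CPM) was above the lowest P3 library (2.78 CPM), and the change was within 2-fold without P3 replicate 1 (-0.90) or without P3 replicate 2 (-0.99). The share of all genes called lower was 2.28% at P7 against P5 and 7.41% at P7 against P3. Between P5 and P3, 0 of the 6 were called, 0 had an unadjusted p under 0.05 and 0 were called by DESeq2, where 3.89% of all genes were called in either direction. Serping1 differed by 0.20 ± 0.13 and C1s1 by 0.38 ± 0.22 on the log2 scale in that contrast. Lcn2 and Hp had at most 9 reads in any of these groups, so a change of either was not detectable at this depth.

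The other genes of both systems were taken from lists of 47 complement genes, 38 acute-phase genes and 31 inducers and signalling genes. At P7 against P1, 26 of the complement genes were tested, of which 14 were called lower and 4 higher, with a median log2 fold change of -1.33 against -0.01 for all genes. The share of all genes called was 13.3% lower and 8.1% higher. The integrin genes Itgax and Itgam, which encode subunits of complement receptors on leukocytes, went from 489 and 1072 reads at P1 (8.16 and 17.95 CPM) to 1 and 3 reads at P7. For Itgam the edgeR adjusted p was 3.41e-12. Itgax passed the filter on low counts only through P1, so its fall is a description without a test. The count of complement genes called lower includes Itgax and is in part set by that filter. Cd59a, which encodes a membrane inhibitor of the terminal complex, rose from 5.45 to 27.6 CPM (log2 fold change 2.33 ± 0.18, edgeR adjusted p = 1.30e-09), and its paralog Cd59b rose from 0.166 to 0.724 CPM. C1qa, C1qb and C1qc, which are also in the macrophage list, were among the 14 that fell.

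Of 15 acute-phase genes tested at P7 against P1, 7 were called lower and 1 higher, with a median of -0.58. Lrg1, which encodes a leucine-rich plasma glycoprotein, had 95 reads at P1 and 0 at P7. Of 27 inducers and signalling genes, 3 were called lower and 2 higher, with a median of -0.06. Among those called higher was Il6, an inducing cytokine, which rose from 2.58 ± 1.32 to 11.9 ± 3.6 CPM (log2 fold change 2.21 ± 0.36, edgeR adjusted p = 2.55e-05). Saa3 stood at 0.363 ± 0.530 CPM at P7, and a link between its level and that of any inducer was not tested. Already at P3 against P1, 13 of 26 complement genes were called lower and 2 higher, and 8 of 15 acute-phase genes lower, where 6.58% of all genes were called lower and 2.4% higher.

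The stated choice of the genes did not use open chromatin at the start sites. For each gene the strongest ATAC-seq peak within 1000 bases of any RefSeq start was ranked among all peaks of the sample, so that 100 is the strongest peak and 0 means that no peak was there. Samples had 142384 to 231558 peaks, 168982 to 186562 at P1 and 200376 to 231558 at P7. Serping1 stood at 85.3, 85.5, 86.6 and 82.5 in the P1 samples and at 73.5, 59.7 and 70.0 in the P7 samples. C1s1 stood at 78.2, 79.1, 81.2 and 79.6 at P1 and at 77.0, 73.3 and 61.0 at P7. The P7 lists were longer than those of P1, so a rank places a peak within its sample and a difference in rank is not a measured change in accessibility. For both genes every P7 sample ranked below every P1 sample, with mean differences of -17.2 and -9.08 points (exact permutation test, two-sided, p = 0.0286 each, the smallest that 35 splits allow). For C1s1 the groups overlapped when MACS2 fold enrichment replaced the rank. Over all 38660 genes with a start, 16% were lower at P7 without overlap and 9.82% were higher, so 2 of 9 is near the background.

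The peak near Saa3 ranked at 46.2, 54.2, 58.5 and 40.5 at P1, at 0, 17.7 and 38.2 at P3, at 53.3, 41.3 and 14.9 at P5, and at 56.9, 71.1 and 48.1 at P7. The P7 and P1 samples overlapped (difference 8.84 points, exact permutation p = 0.314). Saa3 has 2 annotated starts. At the one of the printed window the rank was 20.2 to 45.7 at P1 (mean 34.3) and 0 to 36.7 at P7 (mean 20.2), and at the upstream one, a predicted transcript that begins at position 46719615, it was 40.5 to 58.5 at P1 and 48.1 to 71.1 at P7.

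C3 had ranks of 70.9, 73.1, 75.0 and 63.4 at P1, 10.7, 42.1 and 48.3 at P3, 49.9, 51.5 and 26.8 at P5 and 66.3, 68.3 and 49.2 at P7. All P3 and P5 samples were below all P1 samples, and P7 overlapped P1 (difference -9.31, exact permutation p = 0.171). These ranks take the stronger of 2 annotated starts of C3. At the one of the printed window the rank was 47.7 to 69.3 at P1 (mean 57.7) and 41.2 to 66.3 at P7 (mean 52.3). The other, a predicted transcript that begins inside the gene at position 57220965, had 63.4 to 75.0 at P1 and 25.1 to 68.3 at P7. C4b ranked at 36.8, 27.1, 45.1 and 50.8 at P1 and at 25.1, 28.05 and 14.9 at P7, with 1 P7 sample above the lowest P1 sample (difference -17.3, exact permutation p = 0.0857). The Hp start had a peak in 3 of 4 P1 samples and 2 of 3 P7 samples. No peak was found at the Lcn2 start in any of the 13 samples, nor at the Saa1 and Saa2 starts except 1 P3 sample for each. The P3 samples had the fewest peaks, 142384 to 155681, and the lowest mean ranks of Saa3, Hp, C3 and Serping1.

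**Figure D2:**
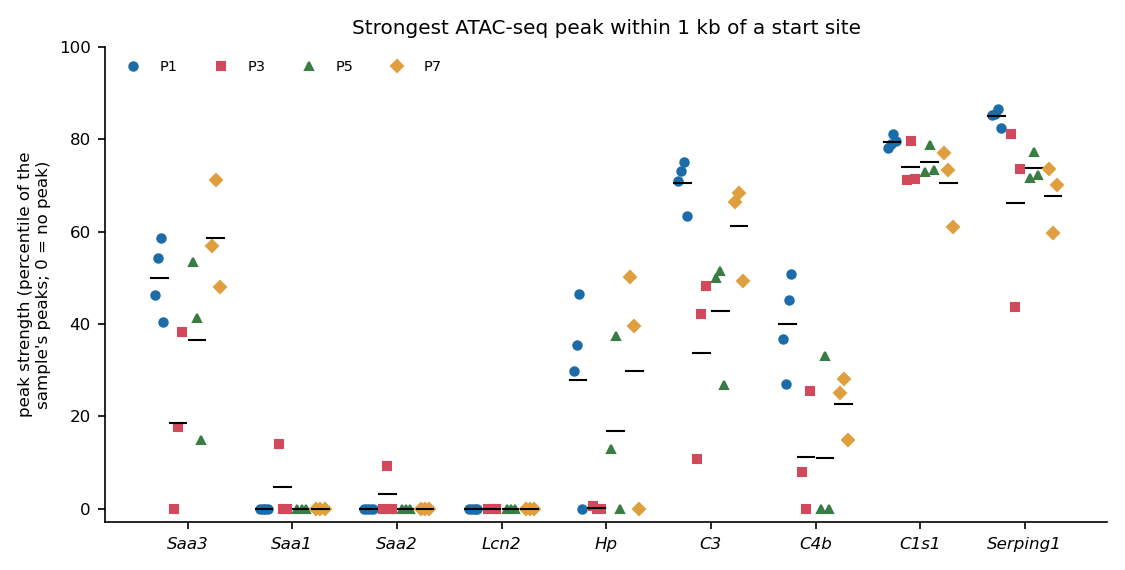
Rank of the strongest ATAC-seq peak within 1000 bases of a start of each gene (y axis, percentile of the peaks of the sample, 0 where there was no peak) for the samples of P1, P3, P5 and P7; lines are group means. Serping1 and C1s1 are lower at P7 than in every P1 sample, whereas the P7 samples of Saa3 (48.1 to 71.1) overlap those of P1.

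In the 28 perturbation libraries the serum amyloid genes were close to absent. Saa1 and Saa2 had 0 reads, and Saa3 had 19 reads in 12 of the 28 libraries, at most 0.182 CPM. Lcn2 had 22 reads in 10 libraries. Saa1, Saa2, Saa3 and Lcn2 did not pass the filter in any of these experiments, and Hp passed in that of E2f4 overexpression only, so their response to the perturbations was not detectable at this depth. C3, C4b, C1s1 and Serping1 had reads in all 28 libraries.

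The control libraries of the 4 experiments differed in these genes. C1s1 had 45.1 ± 4.6 CPM in the non-targeting libraries of the Atf3 experiment, 9.42 ± 0.62 and 9.20 ± 0.18 in those of the E2f4 and Tead1 experiments (n = 3 each), and 19.9 ± 0.8 (n = 2) in the vector libraries. C3 had 14.1 ± 0.4 CPM in the vector libraries and 0.844 ± 0.110 to 2.46 ± 0.48 CPM in the 3 non-targeting groups. Experiment, donor age and passage cannot be told apart in these differences, and no test was made across experiments.

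E2f4 encodes a transcription factor of the E2F family that represses cell cycle genes. The overexpression libraries had 1118 and 1180 CPM of E2f4 against 35.5 and 47.5 CPM in the vector libraries. C3 had 49.8 and 50.6 CPM with E2f4 and 13.8 and 14.4 CPM with the vector. This was a 3.55-fold rise (log2 fold change 1.83 ± 0.13, edgeR adjusted p = 4.31e-06), above the spread of both pairs. Hp had 1.09 and 0.86 CPM against 0.349 and 0.231 CPM, from 48 and 12 reads, with a log2 fold change of 1.71 ± 0.50 (edgeR adjusted p = 0.0133). The Hp call was lost without E2f4 replicate 1 or vector replicate 2 and under DESeq2.

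C4b had 22.5 and 22.0 CPM against 15.1 and 16.1 CPM, a log2 fold change of 0.51 ± 0.13 (edgeR adjusted p = 0.00722) that was below the 2-fold limit. C1s1 (log2 fold change 0.05 ± 0.13) and Serping1 (-0.05 ± 0.13) had overlapping libraries, and their adjusted p in the edgeR fit was 0.770 and 0.767. Thus 2 of the 5 genes tested, C3 and Hp, were called higher, where 7.69% of all genes were called higher and 10.4% lower. Hp passed the filter on low counts only through the libraries with E2f4, where it was high. Its call is therefore a description and cannot be set against that share.

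Among the wider lists with E2f4 overexpression, 7 of 12 acute-phase genes were called higher and 1 lower, 7 of 27 inducers and signalling genes higher and 1 lower, and 2 of 17 complement genes higher and 4 lower. The medians were 1.07, 0.52 and -0.67 on the log2 scale, against 0.01 for all genes. Socs3, a feedback inhibitor of cytokine signalling, had 55.5 against 11.7 CPM (log2 fold change 2.25 ± 0.15, edgeR adjusted p = 3.33e-06). Cebpd, which encodes C/EBP delta, had 143 against 31.1 CPM (2.2 ± 0.12, edgeR adjusted p = 2.54e-06), and the metallothionein gene Mt2 87.9 against 21.7 CPM (2.02 ± 0.12). Lower levels were found for the complement regulators Cd46 (log2 fold change -3.20 ± 0.62) and Cd55 (-2.38 ± 0.17). Macrophage markers summed to 4.44 to 5.21 CPM with E2f4 and 7.12 to 7.38 CPM with the vector, and keratinocyte markers to 68.4 to 70.7 and 47.8 to 49.5 CPM. Of the 12 macrophage markers 7 and 6 were at 0, and of the 10 keratinocyte markers 1 and 5. Skeletal muscle markers summed to 23.2 to 24.1 CPM with E2f4 and 67.8 to 77.1 CPM with the vector, adipocyte markers to 18.2 to 22.0 and 32.8 to 38.2 CPM, and endothelial markers to 54.0 to 60.5 and 37.4 to 41.4 CPM. The part of these cells was not tested.

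E2f4 knockdown lowered E2f4 from 59.6, 60.8 and 59.6 CPM to 21.6, 20.4 and 21.8 CPM. C1s1 had 15.3, 18.9 and 23.4 CPM with E2f4 sh1 and 9.81, 9.75 and 8.71 CPM with the non-targeting hairpin, a 2.03-fold rise (log2 fold change 1.02 ± 0.16, edgeR adjusted p = 0.00063). C3 had 1.82, 1.75 and 2.84 CPM against 0.971, 0.788 and 0.774 CPM (log2 fold change 1.32 ± 0.39, edgeR adjusted p = 0.0308). Serping1 had 22.4, 31.6 and 26.5 CPM against 16.2, 17.9 and 16.4 CPM (0.67 ± 0.13, edgeR adjusted p = 0.00286), under the 2-fold limit, and C4b 2.68, 2.63 and 3.06 against 1.65, 1.28 and 2.03 CPM (0.75 ± 0.31, edgeR adjusted p = 0.117). All 4 genes had higher values in every knockdown library than in every control library, as did 17.9% of all genes.

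Of these 4 genes, 2 were called higher, against 1.46% of all genes. One of them, C3, passed the filter on low counts only through the E2f4 sh1 libraries, where it was high. Its call is therefore a description and cannot be set against that share. C3 rested on 61 and 26 reads, and its call was lost under DESeq2, without any 1 of the 3 control libraries and without E2f4 sh1 replicate 3. C1s1 fell under the 2-fold limit without E2f4 sh1 replicate 3 (log2 fold change 0.86) or control replicate 3 (0.98). Of the wider lists, 1 of 14 complement genes and 1 of 11 acute-phase genes were called higher, namely C1ra, the partner protease of C1s (12.3 against 5.95 CPM, log2 fold change 1.05 ± 0.18) and Mt2 (1.17 ± 0.24). Of 27 inducers and signalling genes, 1 was called higher. C3 was thus higher in the libraries with more E2f4 and in those with less E2f4, each against its own control in a separate experiment. For the knockdown this is a description, given the filter. The 12 macrophage markers summed to 14.6 to 22.3 CPM with E2f4 sh1 and 5.81 to 11.3 CPM in its controls, with 1 and 2 of them at 0. The skeletal muscle markers, 8 in number, summed to 113 to 137 CPM with E2f4 sh1 and 76.5 to 77.2 CPM in its controls, and the part of these cells was not tested.

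Tead1 encodes a TEAD factor of the Hippo pathway, and Tead1 fell from 572, 508 and 545 CPM to 268, 284 and 285 CPM with sh3 and to 315, 313 and 320 CPM with sh4. Of the 4 genes tested, 0 were called in edgeR or DESeq2 with either hairpin, where 2.71% and 1.53% of all genes were called, and 0 between the hairpins, where 0.269% were. Unadjusted p-values under 0.05 were found for 0 genes with sh3, 2 with sh4 and 1 between sh4 and sh3. The largest value was that of C1s1 with sh4, which had 12.7, 14.8 and 14.1 CPM against 9.13, 9.07 and 9.41 CPM. This was a 1.51-fold difference (log2 fold change 0.59 ± 0.11, edgeR adjusted p = 0.000145), and C1s1 was also higher with sh4 than with sh3 (10.4, 8.49 and 11.05 CPM), by 0.48 ± 0.11 (edgeR adjusted p = 0.00649). Serping1 differed by 0.16 ± 0.11 with sh3 and 0.28 ± 0.11 with sh4. C3 and C4b differed by -0.40 ± 0.34 and -0.27 ± 0.37 with sh3 and by -0.09 ± 0.32 and -0.10 ± 0.36 with sh4, and their libraries overlapped. With sh3, 2 of 17 complement genes were called higher, of which Cd55 stood first (log2 fold change 1.43 ± 0.09), and 1 lower. Of 27 inducers and signalling genes, 1 was called higher with sh3. By the adjusted p alone, sh3 gave 6 higher and 3 lower complement genes and 17 higher and 5 lower inducers and signalling genes. The share of all genes at that limit was not computed for sh3. With sh4, no gene of the wider lists passed the 2-fold limit in edgeR, while an adjusted p below 0.05 was reached by 4 higher and 1 lower of 17 complement genes and by 8 higher and 4 lower of 27 inducers and signalling genes, against 14.4% higher and 14.7% lower of all genes.

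Atf3 encodes a stress-induced factor of the ATF and AP-1 group. Atf3 was low in all libraries of this experiment, with 3.31, 2.85 and 2.77 CPM in the controls, 1.46, 2.10 and 0.451 CPM with sh5 and 1.51, 1.56 and 2.09 CPM with sh6. It was lower in every hairpin library, with log2 fold changes of -1.14 ± 0.39 (edgeR adjusted p = 0.0447) for sh5 and -0.79 ± 0.39 (edgeR adjusted p = 0.114) for sh6.

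All 4 complement genes fell with sh6. C1s1 had 50.01, 40.8 and 44.5 CPM in the controls and 5.35, 6.17 and 5.46 CPM with sh6, a 7.97-fold fall (log2 fold change -2.99 ± 0.15, edgeR adjusted p = 2.14e-07). Serping1 had 32.1, 22.7 and 26.6 CPM in the controls and 8.60, 6.71 and 7.55 CPM with sh6, a 3.56-fold fall (-1.83 ± 0.15, edgeR adjusted p = 5.13e-06). C3 had 3.01, 2.19 and 2.17 CPM and fell to 0.116, 0.0599 and 0.407 CPM, from 158 to 10 reads (-3.61 ± 0.46, edgeR adjusted p = 9.6e-05). C4b had 5.56, 4.61 and 3.83 CPM and fell to 0.639, 0.360 and 1.16 CPM (-2.68 ± 0.36, edgeR adjusted p = 0.00015). Every sh6 library was below every control library for each of the 4, as for 34.3% of all genes, and 10.9% of all genes were called lower and 4.83% higher.

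With sh5 the same genes were lower by less. C1s1 had 23.1, 27.3 and 32.4 CPM, a log2 fold change of -0.71 ± 0.13 (edgeR adjusted p = 0.00349). C4b had 2.11, 3.33 and 2.14 CPM (-0.88 ± 0.31, edgeR adjusted p = 0.0467), C3 1.46, 1.18 and 1.47 CPM (-0.85 ± 0.34, edgeR adjusted p = 0.0731) and Serping1 19.3, 21.2 and 22.4 CPM (-0.37 ± 0.14, edgeR adjusted p = 0.0626). All 4 were below every control library, as were 28.6% of all genes, but 0 passed the 2-fold limit in edgeR or DESeq2, where 5.2% of all genes were called, and 4 had an unadjusted p under 0.05. C4b was called without Atf3 sh5 replicate 2 (-1.13).

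The difference between the hairpins was itself called for all 4 genes. The log2 fold change of sh6 against sh5 was -2.28 ± 0.15 for C1s1, -1.46 ± 0.15 for Serping1, -2.76 ± 0.49 for C3 and -1.80 ± 0.38 for C4b (edgeR adjusted p = 1.32e-06, 2.83e-05, 0.000895 and 0.00257), where 9.39% of all genes were called lower. Atf3 itself did not separate the hairpins, since its sh6 libraries lay within the range of the sh5 libraries (log2 fold change 0.35 ± 0.42, edgeR adjusted p = 0.504).

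**Figure D3:**
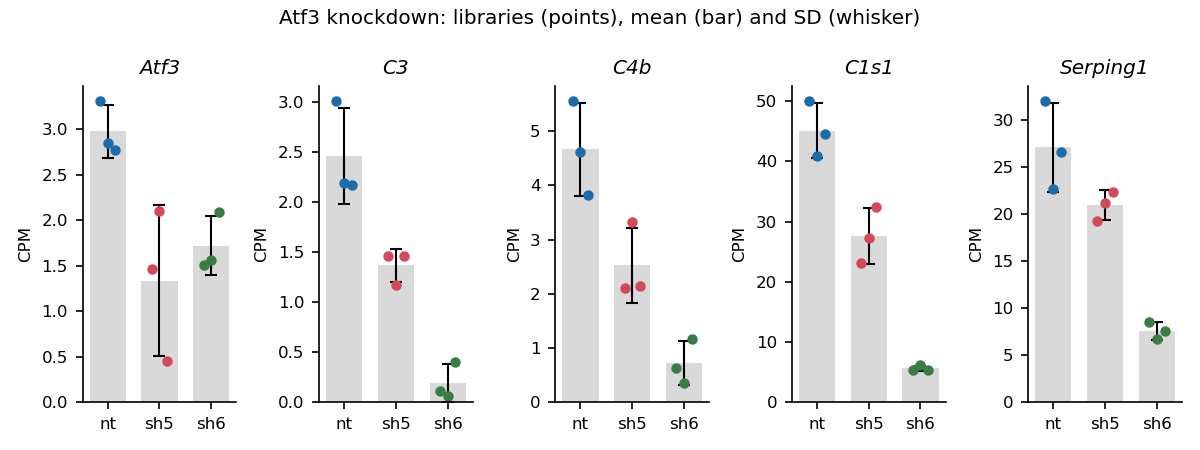
CPM of Atf3 and of the 4 complement genes with reads in the Atf3 experiment (y axes start at 0), in the libraries of the non-targeting hairpin (nt), sh5 and sh6 (points); bars are means and whiskers SD, n = 3. C1s1 falls from between 40.8 and 50.01 CPM in the controls to between 5.35 and 6.17 CPM with sh6, while Atf3 overlaps between sh5 and sh6.

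Other genes of the cascade fell with sh6 too. Of 19 complement genes tested, 7 were called lower and 1 higher, with a median log2 fold change of -0.48 against -0.02 for all genes. C1ra had 3.75 CPM against 26.3 CPM (log2 fold change -2.81 ± 0.17, edgeR adjusted p = 8.11e-07) and C2, the component that pairs with C4b, 1.05 against 4.61 CPM (-2.13 ± 0.32, edgeR adjusted p = 0.000352). Cebpa, which encodes C/EBP alpha, had 6.17 against 55.9 CPM (-3.18 ± 0.45, edgeR adjusted p = 0.000204). Of 12 acute-phase genes 3 were called lower and 2 higher, and of 27 inducers and signalling genes 3 lower and 4 higher. Among those called higher were Il6 (6.46 against 1.02 CPM, log2 fold change 2.64 ± 0.20) and the complement receptor gene Cr2 (2.03 against 0.425 CPM, 2.27 ± 0.40). With sh5, Il6 rose as well (3.30 CPM, 1.67 ± 0.20), and Cebpa was lower (22.1 CPM, -1.33 ± 0.40).

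Marker lists also moved with sh6. The 8 skeletal muscle markers summed to 199 to 217 CPM with sh6, 38.4 to 39.99 CPM in the controls and 16.9 to 19.0 CPM with sh5. The 10 adipocyte markers summed to 42.3 to 61.0 CPM with sh6, 136 to 171 CPM in the controls and 187 to 212 CPM with sh5, with 3 or 4 of them at 0. The fibroblast markers summed to 46879 to 48896 CPM with sh6, 54320 to 57863 CPM in the controls and 39085 to 52729 CPM with sh5. Their part in the fall of the complement genes was not tested.

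**Figure D4:**
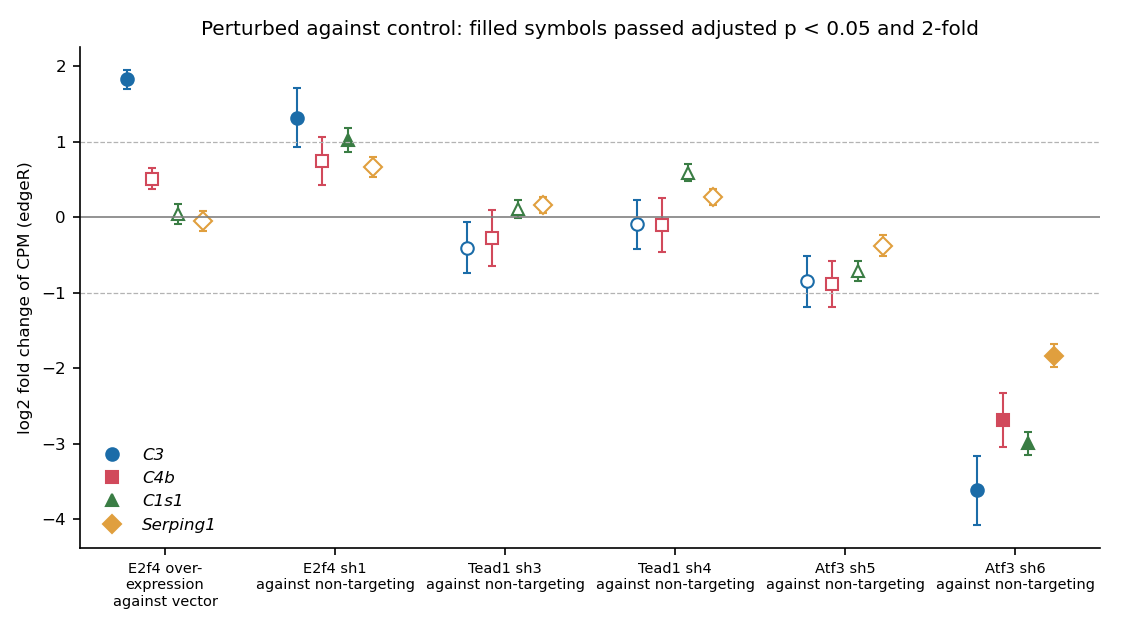
Log2 fold change (y axis) of C3, C4b, C1s1 and Serping1 in 6 comparisons of perturbed with control libraries (x axis). Whiskers are standard errors derived from the edgeR F statistic. Filled symbols passed an adjusted p below 0.05 and a 2-fold change. All 4 genes are called lower with Atf3 sh6 and none with Atf3 sh5 or with the Tead1 hairpins.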

How the data were processed

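RNA-seq and ATAC-seq files of mouse skin fibroblasts were used. Per the labels and methods, the authors trimmed RNA-seq reads with Trimmomatic 0.39, aligned them with HISAT2 2.2.1 to mm10 and counted them per gene with HTSeq 0.12.4 without strand, and the deposited values are raw counts. Rows that name no gene took 7.5% to 16.8% of the perturbation libraries and were left out. For ATAC-seq, the authors aligned with Bowtie2 2.3.5.1 and called peaks per sample with MACS2, and the deposited peak files hold a fold enrichment (ratio) and −log10 p- and q-values.

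All groups of an experiment entered 1 edgeR 4.0.16 fit (R 4.3.3; filterByExpr, TMM, quasi-likelihood test), and p-values were adjusted by Benjamini-Hochberg over all genes tested. A call needs an adjusted p below 0.05 and a change of more than 2-fold. The standard error (SE) of a log2 fold change is its absolute value divided by the square root of the quasi-likelihood F statistic. DESeq2 1.42.0, other filters and scalings, a replicate block and leaving out each library were tried. The fit was tested on simulated data. Promoter peaks were ranked by −log10 p within a sample and compared by an exact permutation test. Libraries of a group differed beyond sampling noise (chi-square per degree of freedom of at least 2.75), and the labels do not tie them to separate mice or cultures (the methods speak of independent series for the DNA methylation samples), so p-values measure the spread between these samples, which may be technical in part.

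The 9 genes and the gene lists were chosen with earlier results of these data known. Named besides the 9 genes are the targeted genes, up to 3 called genes with the highest and 3 with the lowest change per contrast from the wider lists, and the 3 genes most correlated with each of the 9. Only a part of these is printed, some genes that the rule names are not reported here, and the C1q genes were named after their values were seen.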

Additional observations from a re-analysis of the deposited data

Results flagged for a closer look

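C3 at P3 was 3.91 CPM in replicate 2 and 2.90 to 3.07 CPM in the other 3 libraries, a gap of 0.831 of the range of the group, just past Dixon's limit. Among the 26 groups of 4 samples examined this was 1, and chance alone gives about 1 in 20.

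The effects of the 2 Atf3 hairpins differed for each complement gene with reads, by the edgeR test of sh6 against sh5 itself. The log2 difference was -2.28 for C1s1, -2.76 for C3, -1.80 for C4b and -1.46 for Serping1, and each was lower in 3 of 3 sh6 libraries than in every sh5 library. The share of all genes lower without overlap was not computed for sh6 against sh5, and was 34.3% for sh6 against the controls.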

How the results depend on the processing

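Of 1439 single values recomputed under the alternatives, 1425 kept their side of the threshold, 12 called values were no longer called, 2 others became called, and 0 called values changed sign. The counts of called genes fell where at least 10 counts were required in every library, since that filter removes genes with few reads: to 2 at P3, P5 and P7 against P1 (from 6), 0 at P5 against P3, 1 at P7 against P3, 1 with E2f4 overexpression, 1 with E2f4 sh1, and 2 with Atf3 sh6 against the controls and against sh5. All counts given here for contrasts among P3, P5 and P7 include Saa3, whose calls are a description because its passage values chose it. With Saa3, the main fit called 1 gene at P5 against P3 and 2 at P7 against P3. DESeq2 called 1 gene with E2f4 overexpression and 1 with E2f4 sh1. With the adjusted p alone, 1 gene was called with Tead1 sh4, 1 for sh4 against sh3 and 2 with Atf3 sh5. Leaving out 1 library gave 1 to 2 calls at P7 against P3, 1 to 2 with E2f4 overexpression, where the lone library is assumed to vary like the other group, 0 to 2 with E2f4 sh1 and 0 to 1 with Atf3 sh5. For promoter peaks, a window of 2000 bases gave 4 genes without overlap, and leaving out 1 sample gave 2 to 3. The shares of all genes were not computed for these settings, so these counts have no background to be set against. The causes were not tested. Passage libraries of the same replicate number deviated together in part: the correlation of deviations was -0.26 to 0.28 over 24 pairs (median 0.094, against -0.022 for other numbers), above 0.1 in every pair of replicate 4 but not of the other numbers, and 27 of 48 best matches fell on the same number, a hint from the data and not from the labels. A replicate block left all counts as they were, for example 6 at P7 against P1. Lcn2, Hp and Saa1 are limited by depth after P1.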
